A study of Mus musculus with 16 samples.

Results

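The genes described here encode the 5 beta subunits of heterotrimeric G proteins, Gnb1, Gnb2, Gnb3, Gnb4 and Gnb5. They were taken by symbol and mapped to Ensembl identifiers, which gave 5 of the 25006 genes in the count files. The family was selected on the rise of Gnb1 in MCU-KO mice, so the genotype difference of Gnb1 is given below as a description and carries no test. The other 4 genes entered as relatives of Gnb1, and the question was whether they shared or offset its rise, in each mouse and between the genotypes.

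A heterotrimeric G protein is built from an alpha, a beta and a gamma subunit. The beta subunit folds into a propeller of WD40 repeats and is held to a gamma subunit in a dimer, which is released when a receptor activates the alpha subunit and then acts on ion channels and enzymes of its own. In dopaminergic neurons of the substantia nigra pars compacta (SNc), dopamine autoreceptors and GABA-B receptors couple through such dimers to inwardly rectifying potassium (GIRK) channels. Gnb1 to Gnb4 are close relatives that pair with the common gamma subunits, whereas the divergent Gnb5 is held mainly by RGS proteins of the R7 family.

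Messenger RNA attached to ribosomes was collected from SNc dopaminergic neurons with RiboTag, a tagged ribosomal protein whose expression depends on Cre recombinase and which is then immunoprecipitated. All 16 mice were 45 days old and carried 1 copy of DAT-Cre, in which Cre is driven by the dopamine transporter gene, and all received an AAV vector with the RiboTag construct in both SNc 30 days before the tissue was taken. The 8 control mice were DAT-Cre +/- from crosses of DAT-Cre and C57/BL6 mice, and the 8 MCU-KO mice were DAT-Cre+/- MCU fl/fl, so that the mitochondrial calcium uniporter gene Mcu is deleted where Cre is active. The controls came from another cross than the MCU-KO mice and not from their littermates, and the deletion and the parental background cannot be told apart in these groups. Each mouse gave 1 library.

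Between 14129527 and 22016362 reads per mouse were counted on genes, and MCU-KO mouse 8 was the lowest by far (the next was control mouse 7 with 18999107). Levels are given as CPM, the counts scaled to library size with TMM factors. Scaled to total counts alone, without TMM factors, 3 counts correspond to between 0.136 and 0.212 CPM. Mcu had 23.6 ± 14.3 CPM in control (SD, n = 8, range 6.25 to 43.1) and 10.4 ± 7.24 CPM in MCU-KO (SD, n = 8, range 0.301 to 21.3). The log2 fold change of Mcu was −1.19 (95% confidence interval, CI, −2.41 to 0.04), and the genotypes as labelled overlapped in Mcu. The paper checked the deletion separately, by quantitative RT-PCR of Mcu in RiboTag mRNA and by imaging of mitochondrial calcium. A gene is said to be called where its adjusted p was under 0.05 in the fit of edgeR. All 10 markers of dopaminergic neurons were tested, and 0 were called or had an unadjusted p under 0.05. Their summed level was 14669 to 18934 CPM in control and 12564 to 21118 CPM in MCU-KO. Markers of glia were present in every library. The 18 astrocyte, oligodendrocyte and microglia markers summed to 3205 to 6232 CPM in control (median 4483) and to 3890 to 7537 CPM in MCU-KO (median 4803), with 0 of 18 called and 1 at an unadjusted p under 0.05. All of these markers but Aqp4, Cnp and P2ry12 had a log2 fold change above 0. With limma-voom, 0 of 18 had an adjusted p under 0.05 and 4 had an unadjusted p under 0.05.

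Because the 5 genes are related, the bases that tell their transcripts apart were examined first. Over the aligned coding sequence, Gnb1 was identical to Gnb2 at 77.0% of bases, to Gnb4 at 76.9%, to Gnb3 at 76.0% and to Gnb5 at 60.3%. The longest run of identical bases between Gnb1 and another member was 27, with Gnb4. None of the 4302 stretches of 50 bases in annotated Gnb1 transcripts occurred in a transcript of another gene (0 of 4302). To show how the members differ, the 60 coding bases in which Gnb2 and Gnb4 together differ least from Gnb1, near the end of the reading frame, are printed 5′ to 3′ with the aligned bases of the others (GENCODE M21 transcripts on GRCm38, coding bases 958 to 1017 of Gnb1, chr4:155557212-155557271, plus strand). Capitals mark bases that differ from Gnb1.
Gnb1: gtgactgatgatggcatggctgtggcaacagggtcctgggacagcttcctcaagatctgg
Gnb2: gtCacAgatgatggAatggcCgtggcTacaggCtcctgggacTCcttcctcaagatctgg
Gnb3: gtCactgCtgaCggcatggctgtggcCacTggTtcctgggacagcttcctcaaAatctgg
Gnb4: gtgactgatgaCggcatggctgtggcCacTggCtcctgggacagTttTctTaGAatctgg
Gnb5: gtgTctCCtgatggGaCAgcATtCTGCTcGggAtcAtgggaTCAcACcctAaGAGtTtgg

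In this window Gnb3 differed from Gnb1 at 7 bases, Gnb2 at 8, Gnb4 at 9 and Gnb5 at 26. The order of likeness over the window placed Gnb5 apart, as it did over the whole coding sequence. A pseudogene of Gnb1, Gnb1-ps2 (chr14:96700273-96700609), was closer. It was identical to the Gnb1 coding sequence at 91.4% of 336 aligned bases and differed at 1 base of the same window.
Gnb1-ps2: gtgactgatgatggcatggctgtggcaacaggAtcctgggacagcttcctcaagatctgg

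A second pseudogene, Gnb1-ps3 (chr8:94760288-94761237), was identical to Gnb1 at 83.0% of 929 aligned bases, with a longest identical run of 34 bases. Neither pseudogene is among the genes of the deposited counts, so counts of the pseudogenes themselves could not be examined. The members lie on 5 chromosomes. Gnb1 (ENSMUSG00000029064) spans chr4:155491361-155559269 on the plus strand, and Gnb2 (ENSMUSG00000029713) spans chr5:137528127-137533510 on the minus strand. Gnb3 (ENSMUSG00000023439) spans chr6:124834240-124840275 and Gnb4 (ENSMUSG00000027669) spans chr3:32580332-32616585, both on the minus strand. Gnb5 (ENSMUSG00000032192) spans chr9:75306288-75345876 on the plus strand. The encoded proteins have 340 residues for Gnb1, Gnb3 and Gnb4, 382 for the Gnb2 transcript used and 395 for that of Gnb5.

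Gnb1, the beta subunit with the most counts here, was found at 395.9, 294.4, 285, 258, 358, 405, 283 and 325 CPM in control mice 1 to 8. In MCU-KO mice 1 to 8 it was found at 660, 906, 636, 746, 680.2, 541, 694 and 685 CPM. The lowest MCU-KO mouse, mouse 6, was above the highest control mouse, so the genotypes did not overlap, and MCU-KO mouse 2 was the highest of all. The means were 326 ± 55.1 CPM in control (SD, n = 8) and 694 ± 104 CPM in MCU-KO (SD, n = 8). In edgeR's fit over all genes this was a log2 fold change of 1.09, with an SE of 0.11 and a 95% CI of 0.86 to 1.32, or a 2.13-fold difference. In a library from pooled cells, more cells with Gnb1 and more Gnb1 mRNA per cell cannot be told apart. This is the value on which the family was selected. Of the 12390 genes tested in that fit, 0.178% had an adjusted p under 0.05, and 0.25% had CPM that did not overlap between the genotypes. The spread of Gnb1 between mice of 1 genotype was a coefficient of variation of 16.9% in control and 15.0% in MCU-KO.

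Gnb2, a widely expressed relative that also pairs with the common gamma subunits, had nearly the same mean in both genotypes. It was found at 142, 152, 169, 228, 264, 188, 290 and 265 CPM in control mice 1 to 8 and at 242, 197, 203, 166, 244, 189, 201 and 174 CPM in MCU-KO mice 1 to 8. All MCU-KO values lay within the range of the control values, and 3 control mice were above every MCU-KO mouse. The means were 212 ± 57.1 and 202 ± 28.3 CPM (SD, n = 8 each). This corresponds to a log2 fold change of −0.07 with an SE of 0.15 and a 95% CI of −0.37 to 0.23. The adjusted p was 1.00 (quasi-likelihood test of edgeR, Benjamini-Hochberg adjustment across the genes tested). Gnb1 was selected for its 2.13-fold difference, and the upper end of the interval of Gnb2 corresponds to a 1.17-fold rise. Its direction was not stable, since the log2 fold change was 0.0073 without control mouse 7 and 0.081 with glial markers as a covariate.

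Gnb5, the divergent member that R7 RGS proteins hold, had a lower mean in MCU-KO but did not pass the test. It was found at 175, 196, 185, 219, 279, 193, 293 and 169 CPM in control mice 1 to 8. In MCU-KO mice 1 to 8 it was found at 225, 203, 126, 216.5, 189, 125, 188 and 146 CPM. MCU-KO mice 3, 6 and 8 were below every control mouse, control mice 5 and 7 were above every MCU-KO mouse, and the other 11 mice overlapped. The means were 213 ± 47.1 and 177 ± 39.8 CPM (SD, n = 8 each), which gave a log2 fold change of −0.27 (SE 0.15, 95% CI −0.58 to 0.04). The unadjusted p was 0.0862 and the adjusted p 1.00 in edgeR's quasi-likelihood test. Without MCU-KO mouse 8, the shallowest library, the log2 fold change was −0.23. With glial markers as a covariate it was −0.18 (95% CI −0.50 to 0.13). Annotated exons of Gnb5 overlap the antisense gene Gm19531 over 7.96% of their bases, and the strandedness of the counting is not given in the sources used here.

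Gnb4, the least expressed member that was tested, was the only one of the tested relatives with a mean above control. It was found at 17.9, 55.6, 58.2, 18.9, 71.9, 21.996, 55.0 and 47.1 CPM in control mice 1 to 8 and at 82.4, 62.4, 78.6, 42.0, 94.4, 78.9, 39.4 and 85.2 CPM in MCU-KO mice 1 to 8. Control mice 1, 4 and 6 lay apart below the other 5 control mice, and 5 MCU-KO mice were above every control mouse, while MCU-KO mice 4 and 7 were below the control median of 51.0 CPM. The means were 43.3 ± 20.8 and 70.4 ± 20.4 CPM (SD, n = 8 each). The difference amounted to a log2 fold change of 0.70 (SE 0.29, 95% CI 0.10 to 1.30), or 1.63-fold (95% CI 1.07 to 2.46). That interval holds the 2.13-fold difference for which Gnb1 was selected, so the fold of Gnb4 was not told apart from it. Gnb4 had an unadjusted p of 0.0237 and did not pass the adjustment (adjusted p = 1.00 in edgeR's quasi-likelihood test). Of all genes tested, 4.41% had an unadjusted p under 0.05, and Gnb4 ranked 283 by p. The unadjusted p was under 0.05 in 25 of 25 settings, and the adjusted p lay between 0.219 and 1.00. The settings reuse the same mice, so their agreement is not independent support. The control mice with low Gnb4 had glial marker sums of 5750, 4579 and 4398 CPM, within the range of the other control mice, and with glial markers as a covariate the log2 fold change was 0.76.

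Gnb3, which is known from cone photoreceptors and retinal bipolar cells, had no counts in 8 of 8 control mice and in 7 of 8 MCU-KO mice. A count of 0 allows a level of up to 0.136 to 0.212 CPM in these libraries, before TMM scaling. The exception was MCU-KO mouse 1, with 31 counts or 1.54 CPM. Gnb3 did not pass the filter on low counts and was not tested.

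**Figure D1:**
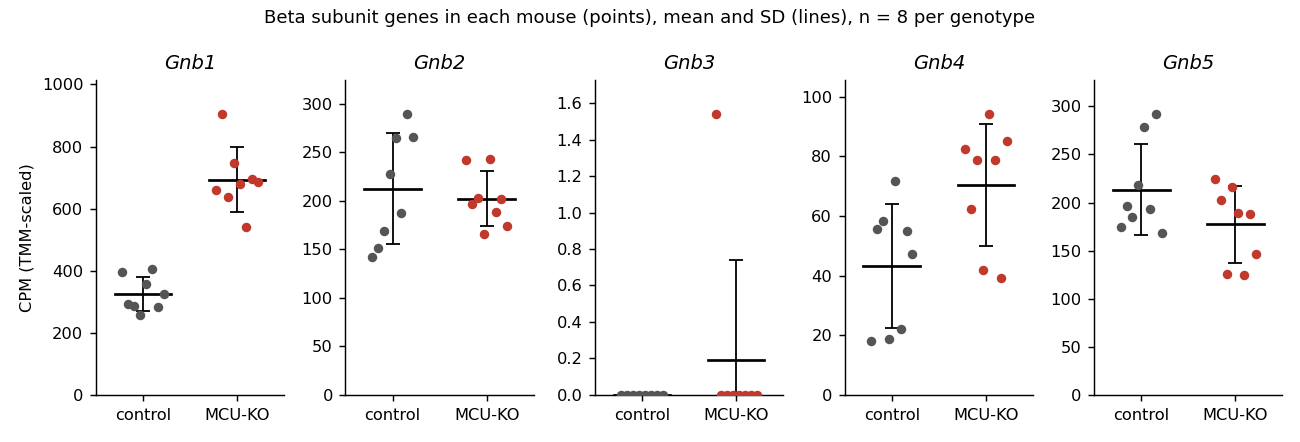
CPM after TMM scaling (vertical axes, each from 0) of the 5 beta subunit genes in control and MCU-KO mice, with points for single mice and lines for the mean and SD (n = 8 per genotype). For Gnb1 the MCU-KO mice lie between 541 and 906 CPM and the control mice between 258 and 405 CPM, for Gnb2, Gnb4 and Gnb5 the genotypes overlap, and Gnb3 is at 0 except in MCU-KO mouse 1.

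Compared per kb of annotated exon, so that levels of different genes can be set side by side, the control mice expressed Gnb1, Gnb5 and Gnb2 at similar levels and Gnb4 far below them. The levels in control were 76.3 ± 12.9 CPM per kb for Gnb1, 68.5 ± 15.1 for Gnb5, 62.4 ± 16.8 for Gnb2 and 3.41 ± 1.64 for Gnb4 (SD, n = 8). Neighbours in this order were compared within each mouse. Gnb1 exceeded Gnb5 in 5 of 8 control mice, with a mean log2 ratio of 0.16 ± 0.42 (SD, n = 8, p = 0.305, adjusted 0.305), and Gnb5 above Gnb2 in 7 of 8 mice by 0.15 ± 0.31 (SD, n = 8, p = 0.211, adjusted 0.305), by a two-sided exact sign-flip permutation test. Neither mean log2 ratio was told apart from 0 by this test. Gnb2 was above Gnb4 in 8 of 8 mice, the mean log2 ratio being 3.90 ± 0.58 (SD, n = 8, exact permutation p = 0.0078, the smallest that 8 mice allow, adjusted 0.0234 over 3 comparisons). Gnb3 was at 0 in every control mouse, so its place below Gnb4 is fixed and was not tested, and no fold is given for it. With the longest transcript in place of all exons as the length, Gnb2 came first, above Gnb1 and Gnb5, and again no comparison of neighbours among these 3 passed. Without control mouse 8 the log2 ratio of Gnb5 to Gnb2 was 0.25 and passed (exact permutation p = 0.0156, adjusted 0.0234).

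In MCU-KO mice the levels per kb were 162.5 ± 24.4 for Gnb1, 59.4 ± 8.31 for Gnb2, 56.9 ± 12.8 for Gnb5 and 5.55 ± 1.61 for Gnb4 (SD, n = 8). Gnb1 stood apart from Gnb2 and Gnb5 in MCU-KO, where it had been near them in control. This restates the difference on which Gnb1 was selected. The following sums, shares and ratios contain Gnb1 or its relatives and are given as values with no test.

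The summed level of the 5 genes was 795 ± 104 CPM in control (SD, n = 8, range 697 to 973) and 1143 ± 129 CPM in MCU-KO (SD, n = 8, range 934 to 1368). In 7 of 8 MCU-KO mice the sum was above that of every control mouse. Gnb1 was higher by 368 CPM in the mean, and the sum of Gnb2 to Gnb5 was lower by 19.3 CPM, from 469 ± 107 to 449.8 ± 59.1 CPM (SD, n = 8 each), a difference within the spread of either genotype. In CPM, the relatives in sum moved by less than Gnb1. Gnb1 was selected for its rise in this contrast, so no conclusion follows from that comparison. The sum of Gnb2 to Gnb5 joins a higher mean of Gnb4 (43.3 CPM in control, 70.4 in MCU-KO) with lower means of Gnb5 (213 and 177) and Gnb2 (212 and 202). Per kb of exon, Gnb4 rose only from 3.41 to 5.55, so it offset less of the lower Gnb5 (68.5 and 56.9). The mean of Gnb1 per kb, the selected gene, was 76.3 in control and 162.5 in MCU-KO. Of the summed level per kb, Gnb1 made up 36.7% ± 7.11 in control (SD, n = 8, range 26.6% to 48.2%) and 57.1% ± 3.84 in MCU-KO (SD, n = 8, range 50.7% to 62.4%). The share of Gnb5 was 32.4% ± 4.06 in control and 19.8% ± 2.84 in MCU-KO, and that of Gnb2 29.3% ± 5.24 and 21.1% ± 3.16 (SD, n = 8 each). Gnb4 made up 1.62% ± 0.762 and 1.99% ± 0.672 (SD, n = 8 each). Shares add up to a whole, so the lower shares of Gnb2 and Gnb5 hold the higher level of Gnb1 together with any change of their own. The mean of Gnb5 itself was 68.5 CPM per kb in control and 56.9 in MCU-KO, and that of Gnb2 62.4 and 59.4. The ratio of Gnb1 to Gnb2 in CPM was 1.66 ± 0.61 in control and 3.50 ± 0.758 in MCU-KO, with overlap. The ratio of Gnb1 to Gnb5 was 1.60 ± 0.459 and 4.03 ± 0.721 (SD, n = 8 each), and here the genotypes did not overlap.

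**Figure D2:**
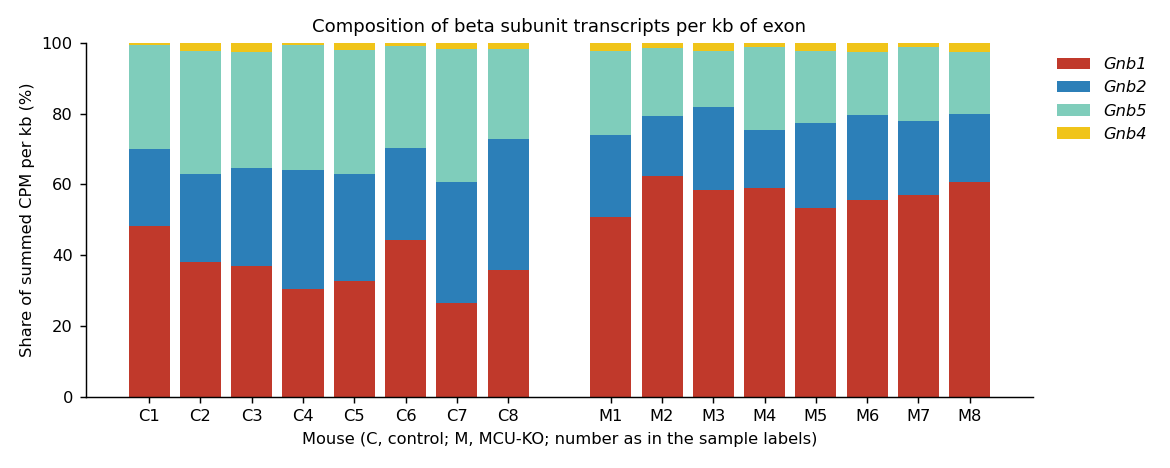
Share of each beta subunit gene in the summed CPM per kb of exon (vertical axis, percent) in each control (C) and MCU-KO (M) mouse, with Gnb3 left out because it was at or near 0. Gnb1 makes up 26.6% to 48.2% in control mice and 50.7% to 62.4% in MCU-KO mice, while the share of Gnb4 is between 0.735% and 2.72% throughout.

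To ask whether a relative followed Gnb1 from mouse to mouse, the log2 CPM were correlated within each genotype, which leaves the genotype difference out. In control mice, Pearson's r with Gnb1 was −0.26 for Gnb2 (exact permutation p = 0.518, Spearman's rho −0.33, p = 0.428) and −0.24 for Gnb5 (exact permutation p = 0.567, rho −0.43, p = 0.299), over 8 mice. For Gnb4 in control mice r was −0.29 (exact permutation p = 0.481, rho −0.14, p = 0.752). These Gnb4 values fell into a low set of 3 mice and a high set of 5, so that r also reflects which mice made up each set. In MCU-KO mice, r was −0.11 for Gnb2 (exact permutation p = 0.820, rho −0.36, p = 0.389) and −0.38 for Gnb4 (exact permutation p = 0.402, rho −0.48, p = 0.243). The largest r was 0.64, for Gnb5 in MCU-KO mice (exact permutation p = 0.0674, rho 0.55, p = 0.171). After Benjamini-Hochberg adjustment over the 6 relations computed, the lowest p was 0.404 for Pearson's r and 0.513 for Spearman's rho. Without the 2 mice farthest from the median of Gnb1, r in control mice was 0.31 for Gnb2, 0.70 for Gnb4 and 0.12 for Gnb5, so the negative r rested on those mice, while rho was 0.029, 0.60 and −0.26. In MCU-KO mice r was then −0.59 for Gnb2, −0.67 for Gnb4 and 0.56 for Gnb5. None of the 6 relations passed the adjustment.

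**Figure D3:**
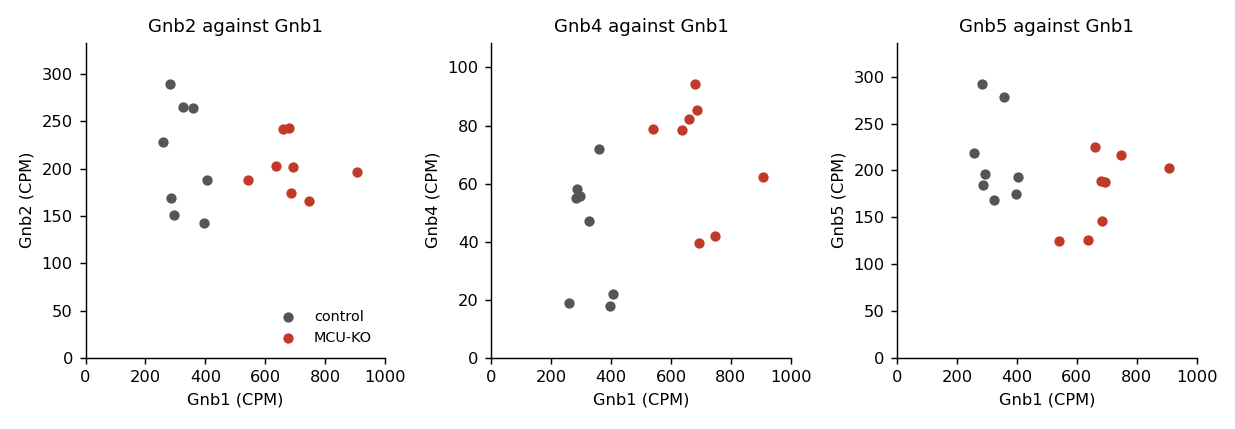
CPM of Gnb2, Gnb4 and Gnb5 (vertical axes) against CPM of Gnb1 (horizontal axes), 1 point per mouse, n = 8 per genotype. The genotypes are parted along the Gnb1 axis and overlap along the other axis in each panel.

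The genes whose log2 CPM followed Gnb1 most closely over the 16 mice, after the genotype means were subtracted, were Aldh1a7 (r = 0.82), Pdzd11 (0.78), Fam102b (0.77), Shtn1 (0.75) and Rflnb (0.74), among 9171 genes with at least 10 CPM on average. By the same measure r was 0.20 for Gnb5, −0.21 for Gnb2 and −0.31 for Gnb4. These correlations share libraries and depth and are a description. The log2 fold changes of the 5 closest genes lay between −0.28 and 0.16.

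The partners and targets of beta subunits were described from gene lists ordered by role. Over all 12390 genes tested, the median log2 fold change was 0.0025, 6241 genes were above 0, and the 5th and 95th percentiles were −0.75 and 0.85. Of the 74 tested genes of the lists outside the family, 0 were called in edgeR and 4 had an unadjusted p under 0.05 (Gng3, Gpr158, Cct5 and Plcb4), shares close to the 0.178% and 4.41% of all genes tested. With DESeq2 and with limma-voom, 0 of the 74 had an adjusted p under 0.05.

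Of 12 gamma subunits, the obligate partners of Gnb1 to Gnb4, 11 were tested and 0 were called, with 7 above 0, 4 below and a median log2 fold change of 0.13. Gng3, the gamma subunit with the most counts, had 715 ± 92.2 CPM in control and 623 ± 78.5 CPM in MCU-KO (SD, n = 8 each). Its log2 fold change was −0.20 (95% CI −0.39 to −0.0017, unadjusted p = 0.0483 and adjusted p = 1.00 in edgeR's quasi-likelihood test), and 0 of 8 MCU-KO mice were above the control median. With glial markers as a covariate the log2 fold change of Gng3 was −0.11. Gng2, next in counts, had 258 ± 39.6 and 281 ± 54.8 CPM (SD, n = 8 each) and a log2 fold change of 0.13. Both gamma subunits differed by less than Gnb1, but Gnb1 was selected for its rise in this contrast, so no conclusion follows.

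Of 16 alpha subunits, 11 were tested and 0 were called, with 10 above 0 and a median of 0.10. Gnas, which encodes the stimulatory alpha subunit, had 2574 ± 193 CPM in control and 2477 ± 131 CPM in MCU-KO (SD, n = 8 each), a log2 fold change of −0.06. The inhibitory Gnai2 had 310 ± 48.5 and 313 ± 38.5 CPM, and Gnai1 250 ± 67.8 and 305 ± 79.7 CPM (SD, n = 8 each), with a log2 fold change of 0.29 for Gnai1 (95% CI −0.06 to 0.64). The direction of Gnai2 changed between settings.

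Among the partners of Gnb5, which are the R7 RGS proteins that speed up the deactivation of Gi/o alpha subunits and the proteins that anchor them, 6 of 8 were tested and 0 were called. The smallest p was that of Gpr158, an orphan receptor that binds RGS7 with Gnb5, at 170.2 ± 38.9 CPM in control and 217 ± 45.5 CPM in MCU-KO (SD, n = 8 each). Its log2 fold change was 0.35 (95% CI 0.05 to 0.65, unadjusted p = 0.0237 and adjusted p = 1.00 in edgeR's quasi-likelihood test). Rgs7bp, which anchors the R7 proteins to membranes, had 228 ± 41.5 and 207 ± 33.9 CPM (SD, n = 8 each), a log2 fold change of −0.14.

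Newly made beta subunits are folded by the cytosolic chaperonin CCT with phosducin-like proteins. Of 14 genes listed as assembly chaperones, 12 were tested and 0 were called, with 9 above 0 and a median of 0.04. These counts include Ric8a and Ric8b (log2 fold changes of 0.06 and 0.32), which are neither chaperonin subunits nor phosducin-like proteins. Cct5, a subunit of the chaperonin, had 413 ± 47.7 CPM in control and 350 ± 31.6 CPM in MCU-KO (SD, n = 8 each), a log2 fold change of −0.24 (95% CI −0.42 to −0.06, unadjusted p = 0.0121 and adjusted p = 0.892 in edgeR's quasi-likelihood test). No MCU-KO mouse was above the control median of Cct5 (0 of 8). Cct7, the chaperonin subunit with the most counts, had 569 ± 97.7 and 575 ± 68.1 CPM (SD, n = 8 each).

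Released dimers act on channels and on members of several enzyme families. Of the lists, 3 of 4 GIRK channel genes and 13 of 18 genes of enzymes and exocytosis were tested, and 0 were called. The enzymes were listed by family, so a listed enzyme need not itself be a target of dimers. Kcnj6, which encodes the GIRK2 channel of SNc dopaminergic neurons, had 39.1 ± 9.77 CPM in control and 31.7 ± 13.8 CPM in MCU-KO (SD, n = 8 each), a log2 fold change of −0.30 (95% CI −0.87 to 0.26). Kcnj9, the GIRK3 channel, had 20.8 ± 15.6 and 25.6 ± 7.11 CPM (SD, n = 8 each), a log2 fold change of 0.30 (95% CI −0.52 to 1.124) that moved to 0.64 without control mouse 3 and to 0.60 with limma-voom. Plcb4, a phospholipase C beta listed by family, had 257 ± 41.3 CPM in control and 211 ± 24.1 CPM in MCU-KO (SD, n = 8 each). Its log2 fold change was −0.28 (95% CI −0.51 to −0.06, unadjusted p = 0.0163 and adjusted p = 0.968 in edgeR's quasi-likelihood test). Snap25, the exocytosis protein that binds beta-gamma dimers at the terminal, had the most counts of this list, and its log2 fold change was 0.08 (95% CI −0.14 to 0.30).

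Both receptor kinases that beta-gamma dimers recruit to the membrane were tested and 0 were called. Grk3 had 60.3 ± 22.7 and 79.3 ± 23.9 CPM (SD, n = 8 each), a log2 fold change of 0.40 (95% CI −0.09 to 0.88), with 8 of 8 MCU-KO mice above the control median, and Grk2 had a log2 fold change of 0.10. Of 17 Gi/o-coupled receptors, 14 were tested, 0 were called, and 10 were below 0 with a median of −0.26, most of them at low counts. Drd2, the dopamine autoreceptor, had 382 ± 55.9 and 338 ± 63.3 CPM (SD, n = 8 each), a log2 fold change of −0.18 (95% CI −0.42 to 0.06). Gabbr1, a subunit of the GABA-B receptor, had 677 ± 104 and 680 ± 57.2 CPM (SD, n = 8 each). The WD40 relatives outside the family, Rack1 and Gnb1l, had log2 fold changes of −0.05 and 0.28 and were not called.

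**Figure D4:**
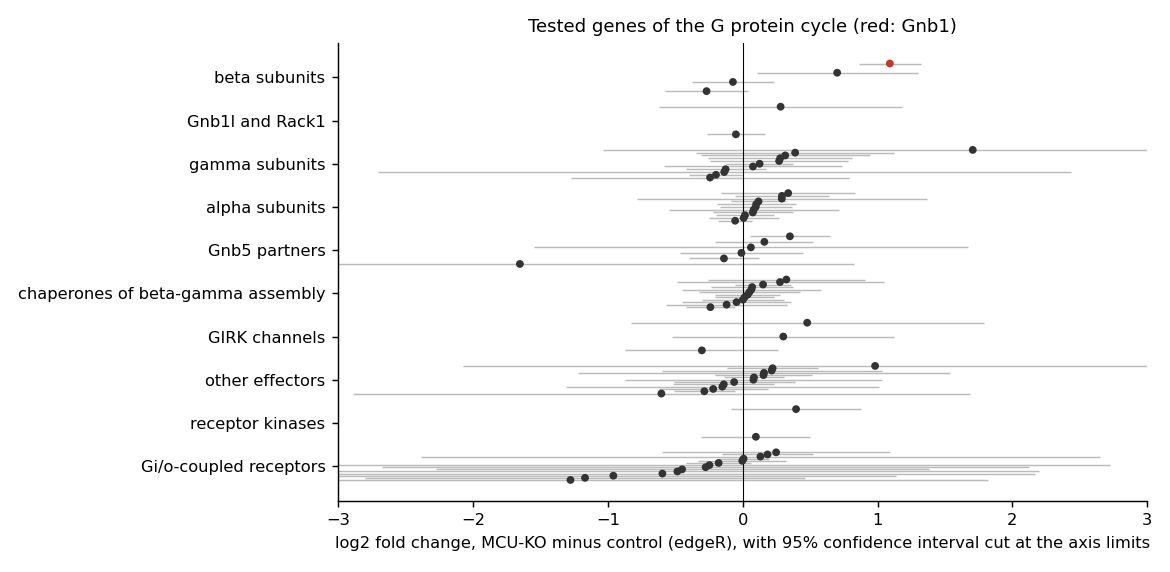
log2 fold change of MCU-KO over control from edgeR's fit (horizontal axis) for the tested genes of the G protein lists, with 95% confidence intervals that end at the axis limits of −3 and 3. Gnb1 at 1.09 is drawn in red, and 0 of the other genes had an adjusted p under 0.05.

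The surroundings of the members were described from the annotation. Within 1 Mb of Gnb1, 45 other genes were tested and 0 were called in edgeR, with a median log2 fold change of −0.14. Of these, 7 had an unadjusted p under 0.05, which 4.41% of all genes tested had. No test of this difference was made. The nearest tested genes on either side were not called. Nadk, 3109 bases after its end, had 35.8 ± 11.8 and 29.7 ± 15.99 CPM (SD, n = 8 each), a log2 fold change of −0.27 (95% CI −0.93 to 0.39), and Cfap74, 24538 bases before its start, had a log2 fold change of −0.22 with a wide interval (95% CI −1.98 to 1.54).

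The CPM of 3 of the 45 genes did not overlap between the genotypes (0.25% of all genes tested), and they are named here after their values were seen. Atad3aos, 202 kb after Gnb1, had 1.71 to 10.3 CPM in control and 0 to 1.13 CPM in MCU-KO (adjusted p = 0.335 in edgeR). Prdm16, 854 kb before Gnb1, had 6.35 to 31.2 CPM in control and 0 to 4.24 CPM in MCU-KO (adjusted p = 0.366 in edgeR). Samd11, 688 kb after Gnb1, had 0 to 2.12 CPM in control and 2.78 to 14.8 CPM in MCU-KO (adjusted p = 0.686 in edgeR). With DESeq2 in place of edgeR, the adjusted p was 0.0019 for Atad3aos, 0.00478 for Prdm16 and 0.0218 for Samd11. Atad3aos also passed with limma-voom and, in edgeR, without MCU-KO mouse 6. Within 1 Mb of the other members, 0 of 40, 31, 10 and 10 tested genes were called around Gnb2, Gnb3, Gnb4 and Gnb5, and in 0 of them the genotypes did not overlap.

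Eno1 and Mt3 were named after their values were seen. Further off on chromosome 4, Eno1 was called, 5242482 bases from Gnb1, with 891 ± 99.7 CPM in control and 484 ± 82.7 CPM in MCU-KO (SD, n = 8 each). Of the 34 tested genes within 1 Mb of the pseudogene Gnb1-ps3, 1 was called, beside 0.178% of all genes tested. It was Mt3, at 606142 bases, with a log2 fold change of −1.87, lower in MCU-KO. Whether sequence differences between the parental backgrounds bear on the counts of Gnb1 was not tested.

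**Figure D5:**
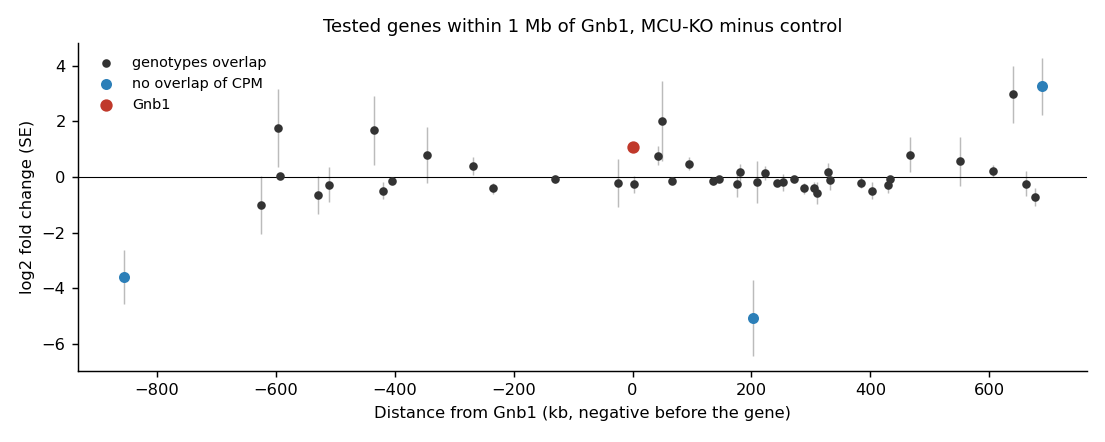
log2 fold change of MCU-KO over control (vertical axis, bars for the standard error) against distance from Gnb1 (horizontal axis, kb) for Gnb1 and the 45 tested genes within 1 Mb of it. Gnb1 is in red, and the 3 genes in blue (Prdm16, Atad3aos and Samd11) did not overlap in CPM between the genotypes.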

How the data were processed

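RNA-seq libraries of RiboTag immunoprecipitates from 8 control and 8 MCU-KO mice were analysed, grouped by the sample labels. The authors trimmed reads (cutadapt in the methods, Trim Galore in the submitters' processing notes), mapped them on mm10 by STAR, assigned them to Ensembl genes by HTSeq and deposited the resulting counts as whole numbers without scaling. Tool versions, strandedness and the annotation release are not given in the sources used here. Reads matching several places may have been left out or split, which gene counts do not show. Symbols (24942 of 25006), positions and transcript sequences came from GENCODE M21 on GRCm38.

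Genotypes were compared with edgeR 4.0.16 in R 4.3.3 (filterByExpr with a minimum count of 10, TMM, quasi-likelihood test, Benjamini-Hochberg adjustment over 12390 genes, threshold 0.05), after a test on simulated data. Totals of 14129527 to 22016362 counts set the floor of 3 counts, and such floors cover counting error only. Correlations used log2 CPM with a prior count of 2. Levels per kb used a pseudocount of 1. Alternatives used DESeq2 1.42.0, which the authors used, limma 3.58.1, other scalings and filters, a replicate block, a glial covariate and the omission of each mouse. Exact tests were run in Python 3.11.15 with scipy 1.17.1.

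The members and the gene lists were chosen with earlier results of these data known. Genes named are the members, Mcu, in each list the called genes, the 2 genes with the most counts and the one with the smallest p, the nearest tested genes beside Gnb1, called genes within 1 Mb of a member, and the 5 genes most like Gnb1. Others are marked. Same-numbered mice of the genotypes are different animals.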

Additional observations from a re-analysis of the deposited data

Results flagged for a closer look

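In 20 groups of 8 mice checked (the 5 members, their sums, the share of Gnb1, the glial marker sum and the total counts in each genotype), the value of 1 mouse lay apart from the other 7 by more than Dixon's criterion allows in 2 groups, where chance gives about 1. Gnb3 was at 1.54 CPM in MCU-KO mouse 1 and at 0 in the other MCU-KO mice. The total of MCU-KO mouse 8 was 14129527 counts, and the next lowest MCU-KO total was 19897268. Without that library the log2 fold change was 1.09 for Gnb1, −0.04 for Gnb2, 0.66 for Gnb4 and −0.23 for Gnb5.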

How the results depend on the processing

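Over 25 settings the log2 fold change of Gnb1 lay between 1.03 and 1.14, that of Gnb4 between 0.59 and 0.84 and that of Gnb5 between −0.32 and −0.18, and none of Gnb2, Gnb4 and Gnb5 had an adjusted p under 0.05 in any of them. Gnb2 turned to 0.081 with glial markers as a covariate and ranged from −0.14 to 0.0073 (without control mouse 7) when single mice were left out, and the cause was not tested. DESeq2 called 90 genes, the 22 of edgeR among them, limma-voom called 27, and leaving out single mice gave 18 to 24. With the mouse number as a replicate block, 14 genes were called. The numbers did not pair the mice, since 0 of 8 same-numbered pairs had a correlation of deviations over 0.1 and 1 of 8 control mice correlated best with its own number.

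In control mice the log2 ratio of Gnb5 to Gnb2 was −0.15 with the longest transcript as the length and 0.10 to 0.25 when single mice were left out (0.15 with all mice). That of Gnb4 to Gnb3, which was at 0, was 2.04, 2.91 with that length and 4.96 with a pseudocount of 0.1. Without the 2 mice farthest from the median of Gnb1, its correlations there turned from −0.26 to 0.31 with Gnb2, from −0.29 to 0.70 with Gnb4 and from −0.24 to 0.12 with Gnb5. Gnai2 was at −0.056 with the glial covariate. Leaving out single mice also turned Gnai2 (−0.025 to 0.061), Cct7 (−0.044 to 0.072), Grk2 (−0.042 to 0.19), Gabbr1 (−0.033 to 0.057), Cfap74 (−0.44 to 0.39) and Pdzd11 (−0.085 to 0.049), all with adjusted p over 0.05. Gnb3 could be fitted only with no filter (adjusted p = 0.198 in edgeR), on the counts of 1 mouse, and its adjusted p in DESeq2 was not available. Prdm16, Atad3aos and Samd11 passed with DESeq2 but not with edgeR, and Atad3aos also with limma-voom and without MCU-KO mouse 6. Depth limits low genes such as Gnb3, Prdm16, Atad3aos and Samd11.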

Other observations

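The relatives of Gnb1 were also compared with each other within genotypes, as a description over 8 mice that share libraries. Gnb2 and Gnb5 had an r of 0.63 in control and 0.27 in MCU-KO mice, Gnb2 and Gnb4 of 0.36 and 0.47, and Gnb4 and Gnb5 of 0.40 and −0.40. Among the tested members, the spread between mice was largest for Gnb4, with a coefficient of variation of 48.1% in control and 29.0% in MCU-KO. Among Gnb2 to Gnb5 alone, Gnb4 made up 2.53% ± 1.154 of the summed CPM per kb in control and 4.63% ± 1.51 in MCU-KO (SD, n = 8 each), and 7 of 8 MCU-KO mice were above the control median. Epo, whose exons share 3.94% of the exon bases of Gnb2 on the same strand together with Mir6418, had 0 counts in all 16 mice.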
